A study of Mus musculus with 12 samples.

Results

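Astrocytes are described here through 10 genes commonly used to mark them: Gfap, Aqp4, Aldh1l1, S100b, Gja1, Gjb6, Glul, Aldoc, Vim and Slc4a4. The genes were chosen by name, and every transcript cluster (the set of array probes that stands for one transcript) assigned to a single gene of that name was taken. This gave 11 transcript clusters for the 10 genes, since Glul has 2, out of 35556 clusters in the value table, of which 23410 are paired with a gene. RNA of the whole hippocampus was measured on 12 Mouse Gene 1.0 ST arrays, 1 per mouse, from 6 MSN mice and 6 ICR mice, all adult males without a drug treatment. MSN (Madison) is a highly inbred strain with a manic phenotype, bred from the hsd:ICR (ICR) stock, which is outbred and served as the ancestral control. The strains were kept as separate colonies, so a strain difference cannot be told apart from a colony difference, and probe sites that carry a strain polymorphism could alter a signal without a change in RNA. Values are intensities on the linear scale of the array, and a fold change is the difference between strains in log2(intensity + 16), which understates the change of dim genes.

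Astrocytes are the glial cells that surround synapses and blood vessels. They take up glutamate and convert it to glutamine, clear potassium and water through specialised endfeet on vessels, share ions and metabolites through gap junctions, and build a cytoskeleton of intermediate filaments that grows when the tissue is injured. In the hippocampus Gfap is strong in many astrocytes and also in the stem cells of the dentate gyrus, while Vim is shared with blood vessels and ependyma, and S100b with some oligodendrocytes.

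The markers did not share a direction between the strains. Gfap and Aqp4 had lower mean levels in MSN mice and Aldh1l1 had a higher one, by 0.30, 0.23 and 0.19 on the log2 scale, and the other 8 clusters differed by -0.09 to 0.05. None of the 11 clusters passed an adjusted p of 0.05 in limma, where the adjustment was over the 23410 clusters with a gene and 0.777% of these passed, 0.303% higher in MSN mice and 0.474% lower. At an unadjusted p under 0.05 there were 3 of 11, 1 higher (background 5.18%) and 2 lower (background 7.50%), beside 12.7% of all clusters in both directions. In bulk tissue, fewer cells of a type and less RNA per cell cannot be told apart.

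**Figure D1:**
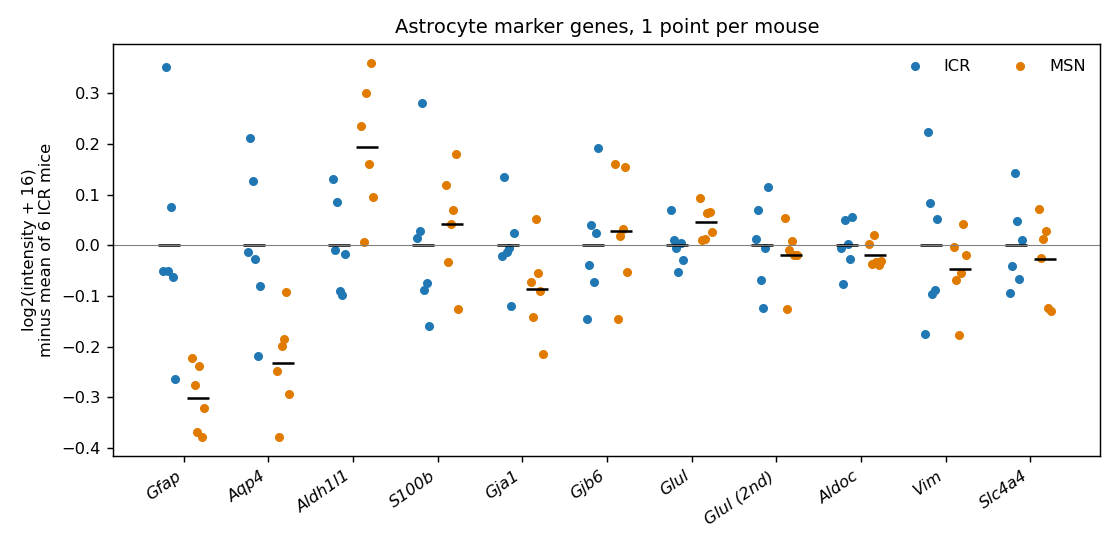
Level of each astrocyte marker in each mouse on the log2(intensity + 16) scale, with the ICR mean set to 0 (vertical axis), ICR mice in blue, MSN mice in orange and strain means as black lines. The MSN mean lies 0.30 below the ICR mean for Gfap and 0.23 below it for Aqp4 but 0.19 above it for Aldh1l1, while single mice of the strains overlap for every marker.

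Gfap, on chromosome 11, encodes the main intermediate filament protein of astrocytes. Its intensity was 1343 at the lowest, 1421 at the median and 1498 at the highest in MSN mice, against 1455, 1689 and 2238 in ICR mice. The strains overlapped through a single ICR mouse: 5 of 6 ICR mice lay above the highest MSN mouse, while ICR 6 lay among the MSN values. The means were 1419 ± 65.4 in MSN and 1765 ± 263 in ICR mice (SD, n = 6 each), a log2 fold change of -0.30 (95% interval -0.47 to -0.13). The limma p of 0.00181 became 0.101 after adjustment, and the exact permutation test of the difference gave a two-sided p of 0.00649. Without ICR 6 the strains no longer overlapped.

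Vim, the other filament gene of the set, on chromosome 2, had a smaller mean difference than Gfap, though the 2 genes were not tested against each other. Its intensities were 1932, 2130 and 2250 (lowest, median, highest) in MSN mice and 1934, 2161 and 2556 in ICR mice. The strains overlapped, with 3 of 6 ICR mice above every MSN mouse and 1 MSN mouse below every ICR mouse, and the log2 fold change was -0.05 (95% interval -0.18 to 0.09, adjusted p = 0.799).

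Aqp4, on chromosome 18, encodes the water channel of the astrocyte endfoot. It was measured at 1653, 1842 and 2020 (lowest, median, highest) in MSN mice and at 1849, 2124 and 2497 in ICR mice. Of the MSN mice 3 lay below every ICR mouse, and 5 of 6 ICR mice lay above every MSN mouse. The means of 1834 ± 126 and 2164 ± 230 (SD, n = 6 each) gave a log2 fold change of -0.23 (95% interval -0.38 to -0.09), with a limma p of 0.00399, an adjusted p of 0.148 and an exact permutation p of 0.0130.

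Aldh1l1, on chromosome 6, encodes a folate enzyme that oxidises 10-formyltetrahydrofolate and is used as a marker of nearly all astrocytes. Its intensities were 702, 805 and 902 (lowest, median, highest) in MSN mice and 652, 693 and 767 in ICR mice. Here the order was opposite to that of Gfap and Aqp4, with 4 MSN mice above every ICR mouse and 4 ICR mice below every MSN mouse. The means were 805 ± 74.3 and 700 ± 46.3 (SD, n = 6 each), and the log2 fold change was 0.19 (95% interval 0.06 to 0.32), with a limma p of 0.00697, an adjusted p of 0.187 and an exact permutation p of 0.0173.

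S100b, on chromosome 10, encodes a calcium-binding protein that astrocytes also release. Its intensities were 1118, 1269 and 1385 (lowest, median, highest) in MSN mice and 1091, 1195 and 1486 in ICR mice. The MSN values all lay within the ICR range, with a log2 fold change of 0.04 (95% interval -0.11 to 0.19, adjusted p = 0.845).

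The gap junction proteins of astrocytes are connexin 43, encoded by Gja1 on chromosome 10, and connexin 30, encoded by Gjb6 on chromosome 14. Gja1 was at 3536, 3879 and 4254 (lowest, median, highest) in MSN mice and at 3777, 4078 and 4506 in ICR mice. Its log2 fold change of -0.09 (95% interval -0.19 to 0.02) had an adjusted p of 0.501, and 2 MSN mice lay below every ICR mouse. Gjb6 was at 1811, 2044 and 2245 in MSN mice and at 1813, 1998 and 2293 in ICR mice. These ranges nearly coincided, with a log2 fold change of 0.03 (95% interval -0.11 to 0.16, adjusted p = 0.891).

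Glul, on chromosome 1, encodes glutamine synthetase, which turns glutamate and ammonia into glutamine. Its brighter cluster was at 8563, 8772 and 9068 (lowest, median, highest) in MSN mice and at 8198, 8496 and 8925 in ICR mice, and 5 of 6 ICR mice lay below every MSN mouse. The log2 fold change was 0.05 (95% interval -0.02 to 0.11, adjusted p = 0.597). The second Glul cluster was at 6967, 7528 and 7895 in MSN mice and at 6980, 7622 and 8234 in ICR mice. It leaned the other way, at -0.02 (95% interval -0.11 to 0.08, adjusted p = 0.899), so the clusters disagreed in sign, though the second was above 0 when arrays were quantile normalized or scaled to one median. Both clusters and their chromosome were assigned by gene name, and the positions of their probes were not checked. Across the 12 mice, strain means subtracted, the 2 Glul clusters correlated at r = 0.444 (permutation p = 0.190) and rho = 0.531 (permutation p = 0.0922), and at r = 0.371 without the 2 mice farthest from the median.

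Aldoc and Slc4a4 complete the set. Aldoc, on chromosome 11, encodes the brain aldolase of glycolysis and was at 7886, 7926 and 8216 (lowest, median, highest) in MSN mice and at 7685, 8097 and 8424 in ICR mice. Slc4a4, on chromosome 5, encodes a sodium bicarbonate cotransporter that regulates pH and was at 3404, 3706 and 3917 in MSN mice and at 3489, 3688 and 4111 in ICR mice. The MSN values of Aldoc lay within the ICR range. The log2 fold change was -0.02 for Aldoc (95% interval -0.09 to 0.05, adjusted p = 0.840) and -0.03 for Slc4a4 (95% interval -0.13 to 0.08, adjusted p = 0.855).

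**Figure D2:**
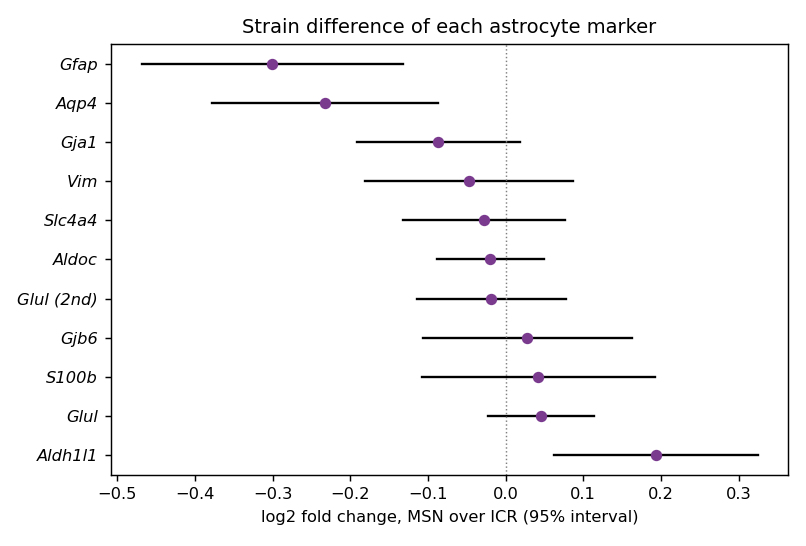
Log2 fold change of MSN over ICR mice for each astrocyte marker cluster (points) with its 95% interval from limma (lines), n = 6 mice per strain. The unadjusted intervals of Gfap, Aqp4 and Aldh1l1 do not reach 0, whereas those of the other 8 clusters do and lie between -0.19 and 0.19.

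For the 8 clusters without an unadjusted p under 0.05, the intervals bound a difference at between -0.19 and 0.19 on the log2 scale, which does not show that the strains were alike. Over the 11 clusters the median log2 fold change was -0.02 and the median absolute value 0.0457, beside -0.0079 and 0.0473 over all clusters with a gene. Of the 11 clusters 7 were below 0, where the background was 54.5%, and both Aldoc and the second Glul cluster moved above 0 under quantile normalization and under scaling to one median. In 0 of the 11 clusters were the strains free of overlap, against 1.44% of all clusters. The intensities of the 10 genes, summed with the brighter Glul cluster, ranged from 32634 to 34890 in MSN mice (median 34134) and from 33253 to 35685 in ICR mice (median 34309). The strains overlapped widely in this sum, in which bright clusters such as those of Glul and Aldoc weigh most.

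The spread between mice was smaller in MSN than in ICR mice for 8 of the 11 clusters, where the background was 50.0%. The median ratio of the SDs, MSN over ICR on the log2 scale, was 0.708, beside 1.0 over all clusters. Gfap had the lowest ratio of the markers, 0.323, from an SD of 0.0658 in MSN and 0.204 in ICR mice. Aldh1l1 had the highest, 1.42, from 0.132 and 0.0925. The ratios were not tested, and with 6 mice per strain a single mouse weighs heavily: ICR 2 had the highest Gfap and Aqp4 values of all mice and ICR 6 the lowest Gfap value of its strain.

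Some mice stood high or low over many markers. MSN 1 was above the mean of its strain in 9 of the 10 genes, while MSN 6 was above it in 1 and MSN 2 in 2. Among ICR mice the most was 7 of 10, in ICR 3. ICR 2 was the highest of its strain in 4 genes, and the lowest of all 12 mice in Aldoc. These counts were not set beside those of all genes in each mouse and are descriptions.

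To ask whether the markers vary together from mouse to mouse, the strain mean was subtracted and all 45 pairs of the 10 genes were correlated over the 12 mice, each gene by its brightest cluster. Of the 45 pairs 37 had a correlation above 0 (82.2%, against 51.9% of all gene pairs), and the median r was 0.236, against 0.018. A correlation of 0.6 or more was found in 4 pairs, 8.89% of them, against 4.56% of all gene pairs. The dimmest marker cluster lay at the 67.8th percentile of mean intensity among clusters with a gene. Neither these backgrounds nor those of the other counts were matched for intensity. Pairs share genes, mice and arrays, so these shares are descriptions. By a permutation within strain, 5 pairs had an unadjusted p under 0.05 and 0 passed after adjustment over the 45 pairs, the lowest adjusted p being 0.393.

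Aqp4, Aldh1l1 and S100b had positive correlations with one another. Aqp4 and Aldh1l1 correlated at r = 0.622 (permutation p = 0.0271, adjusted p = 0.393) and rho = 0.720 (permutation p = 0.0126, adjusted p = 0.284). Without ICR 2 and ICR 5, the mice farthest from the median of Aqp4, r was 0.773, and it was 0.897 within MSN and 0.462 within ICR mice. Aqp4 and S100b correlated at r = 0.664 (permutation p = 0.0349, adjusted p = 0.393) and rho = 0.762 (permutation p = 0.00864, adjusted p = 0.284), with r = 0.822 without the same mice. In these mice the correlations of Aqp4 with Aldh1l1 were above 0 within each strain, whereas the strain means of these genes lay in opposite order. Aldh1l1 and S100b correlated at r = 0.656 (permutation p = 0.0179, adjusted p = 0.393) and rho = 0.657 (permutation p = 0.0328, adjusted p = 0.449), with r = 0.623 without MSN 5 and MSN 2.

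The other 2 pairs with an unadjusted p under 0.05 weakened without the outer mice. Aqp4 and Gja1 correlated at r = 0.664 (permutation p = 0.0223, adjusted p = 0.393) and rho = 0.580 (permutation p = 0.0560, adjusted p = 0.449), but at r = 0.339 without ICR 2 and ICR 5. Gfap and Aldoc were opposed, at r = -0.721 (permutation p = 0.0437, adjusted p = 0.393) and rho = -0.308 (permutation p = 0.377, adjusted p = 0.722). Without ICR 2 and ICR 6 the r of Gfap and Aldoc was -0.04, so that this relation rests on those mice.

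**Figure D3:**
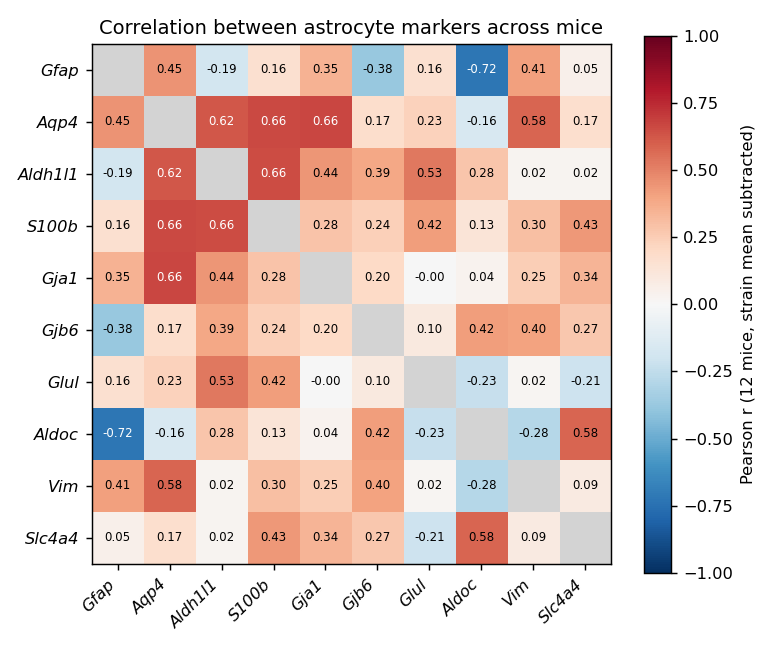
Pearson correlation of each pair of astrocyte markers over the 12 mice after subtraction of the strain means, red for positive and blue for negative. Aqp4, Aldh1l1 and S100b form a block of values from 0.62 to 0.66, and the lowest value, -0.72 between Gfap and Aldoc, rests on ICR 2 and ICR 6.

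Because Aldh1l1 and S100b had the lowest permutation p for Pearson's r among the 45 pairs, although not for rho, their promoters are shown, as the 250 bases before the annotated start in RefSeq (GRCm38.p6, the C57BL/6J reference, not the sequence of either strain). Aldh1l1 lies on the plus strand at chr6:90550543-90550792 and S100b on the plus strand at chr10:76253586-76253835. Capitals mark the CCAAT box, read as CCAAT or, on the opposite strand, as ATTGG.
Aldh1l1: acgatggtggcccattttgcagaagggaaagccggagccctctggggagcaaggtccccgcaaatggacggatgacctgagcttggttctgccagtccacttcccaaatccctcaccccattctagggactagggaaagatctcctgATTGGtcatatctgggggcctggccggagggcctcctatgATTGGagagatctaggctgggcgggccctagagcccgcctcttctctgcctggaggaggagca
S100b: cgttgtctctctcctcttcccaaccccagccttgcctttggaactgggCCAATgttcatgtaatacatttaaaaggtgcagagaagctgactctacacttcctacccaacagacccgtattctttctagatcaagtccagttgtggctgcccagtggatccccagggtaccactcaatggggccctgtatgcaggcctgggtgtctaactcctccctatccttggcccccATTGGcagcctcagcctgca

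Both windows hold 2 CCAAT boxes. They start 103 and 63 bases before the start in Aldh1l1, and 202 and 20 bases before it in S100b. The promoter table holds 11 windows of 9 marker genes, since a gene can have more than 1 start. A CCAAT box on either strand was found in 5 of these 11 windows, from 5 genes (Aldh1l1, Glul, S100b, Slc4a4 and Vim), and in 33.8% of all 32851 windows of the same length. Of the other motifs searched on both strands, the STAT motif TTCNNNGAA was found in Aldoc and in 7.02% of all windows. The AP-1 motif TGANTCA was found in Gja1 and in 6.75%, and the TATA box TATAAA in Vim and in 12.4%. A match describes letters in this window and was not related to the levels.

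Since the means of Aqp4 and Aldh1l1 lay in opposite order between the strains while their correlation within strain was above 0, though none of these passed its adjusted test, the difference of their log2 values was taken in each mouse, a step chosen after the values were seen and given without a test. Relative to the ICR mean, Aqp4 minus Aldh1l1 lay between -0.50 and -0.35 in MSN mice and between -0.14 and 0.22 in ICR mice. The strains did not overlap, and the mean difference between them was -0.43 on the log2 scale, with SDs of 0.0613 and 0.137. Of the 45 marker pairs 4 were free of overlap in this difference, where the background over all gene pairs was 1.50%. The others were Gfap with Aldh1l1, Gfap with Glul and Aqp4 with S100b, with strain differences of -0.49, -0.35 and -0.28. All 4 pairs hold Gfap or Aqp4, whose means were lower in MSN mice. The count thus partly restates those means, and as pairs share genes it is a description.

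**Figure D4:**
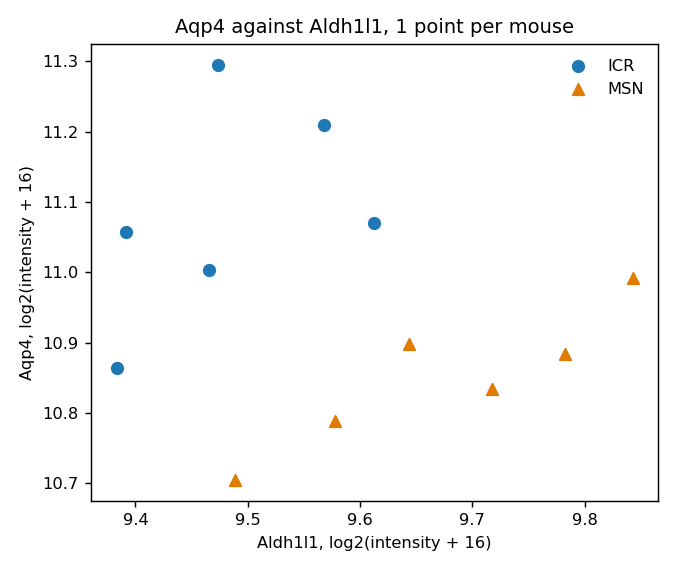
Aqp4 (vertical axis) against Aldh1l1 (horizontal axis) in each mouse, both as log2(intensity + 16), with ICR mice as blue circles and MSN mice as orange triangles. Within each strain mice higher in Aldh1l1 tended to be higher in Aqp4 (r = 0.897 in MSN, 0.462 in ICR), and all MSN mice lie toward less Aqp4 for their Aldh1l1.

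Genes related to the markers were read from lists of functions. The lists were drawn up by gene family, pathway, regulation or enrichment in astrocytes. They also hold genes of other cells, such as the neurofilament genes of neurons, so their counts are not counts of astrocyte genes alone. The markers themselves are also in these lists, except those of regulators, reactive astrocytes and further astrocyte genes, so the counts include them. As background for the counts below, 0.777% of all clusters passed and 54.5% were below 0. At an unadjusted p under 0.05, 5.18% of all clusters were higher and 7.50% lower. Among 10 intermediate filament genes 0 passed the adjusted threshold. At an unadjusted p under 0.05, 4 were higher and 1 lower (50%, against 12.7% of all clusters), and the 1 lower was Gfap. None of the 4 higher genes was one of the 10 markers. Nefh and Nefm, the heavy and medium neurofilament genes of neurons, had log2 fold changes of 0.22 (adjusted p = 0.0828) and 0.15 (adjusted p = 0.292). Both lay on the other side of 0 from Gfap.

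Around the endfoot, 0 of 11 aquaporin and anchoring genes passed, with 1 higher and 3 lower at an unadjusted p under 0.05. The marker Aqp4 is among the 3 lower genes. Kcnj10, the potassium channel Kir4.1 that sits beside Aqp4, was at 3417 ± 199 in MSN and 3040 ± 91.3 in ICR mice (SD, n = 6 each), and its strains did not overlap. Its log2 fold change was 0.17 (95% interval 0.08 to 0.26, adjusted p = 0.0854). Mlc1, a membrane protein of astrocyte junctions at the endfoot, was at -0.14 (adjusted p = 0.0949). The endfoot genes thus included values on both sides of 0, also with Aqp4 set aside.

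Among 12 connexin and pannexin genes 0 passed, and 1 had an unadjusted p under 0.05: Panx2, a pannexin found mainly in neurons, at 0.20 (adjusted p = 0.0574). Gjc1, the next in order after Gja1, was at -0.07 (adjusted p = 0.548). Among 11 genes of the glutamate and glutamine cycle 0 passed, with 2 higher and 1 lower at an unadjusted p under 0.05. Slc1a2, the main astrocyte glutamate transporter, was at 8372 ± 384 in MSN and 9030 ± 138 in ICR mice (SD, n = 6 each). Its strains adjoined without overlap, the highest MSN value being 8765 and the lowest ICR value 8766, with a log2 fold change of -0.11 (95% interval -0.19 to -0.03, adjusted p = 0.196) and an exact permutation p of 0.00216, the smallest that 6 against 6 allows. Slc38a5, a glutamine transporter, was at 0.19 (adjusted p = 0.205) and Glud1, glutamate dehydrogenase, at 0.10 (adjusted p = 0.333).

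Among 15 aldolase and glycolysis genes 0 passed and 0 had an unadjusted p under 0.05, and all lay between -0.06 and 0.05. Those with the smallest p were Pfkp at 0.05, Ldhb at -0.06 and Pgam1 at 0.04 (adjusted p from 0.596 to 0.646). Of 11 folate genes 0 passed, 1 (Aldh1l1 itself) was higher and 2 lower at an unadjusted p under 0.05, and 8 were below 0. Beside Aldh1l1 its mitochondrial relative Aldh1l2 was at -0.13 (adjusted p = 0.359) and Mthfd1l, another mitochondrial folate enzyme, at -0.16 (adjusted p = 0.190). Of 12 bicarbonate transport and carbonic anhydrase genes 0 passed, with 1 higher and 2 lower at an unadjusted p under 0.05. Car2, carbonic anhydrase II, which is strong in oligodendrocytes, was at 0.18 (adjusted p = 0.259), Car10 at -0.25 (adjusted p = 0.318) and Slc4a10, a neuronal bicarbonate transporter, at -0.07 (adjusted p = 0.349).

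Of 13 S100 genes 0 passed and 1 had an unadjusted p under 0.05: S100a10, the annexin partner p11, at 0.25 (adjusted p = 0.387), with S100a11 at -0.12 (adjusted p = 0.405) and S100a4 at -0.12 (adjusted p = 0.460). Of 18 regulators of astrocyte genes 0 passed, and Id3, an inhibitor of DNA binding, was at -0.09 (adjusted p = 0.387), Il6st, the shared receptor gp130 of the interleukin 6 family, at -0.08 (adjusted p = 0.481) and Nfix, a nuclear factor I protein, at -0.06 (adjusted p = 0.538). Of 27 genes associated with reactive astrocytes 0 passed, and their median was -0.0051. At an unadjusted p under 0.05, 2 were higher and 1 lower (11.1%, against 12.7% of all clusters). Cd44, a hyaluronan receptor, was at -0.19 (adjusted p = 0.286) and Srgn, the proteoglycan serglycin, at 0.14 (adjusted p = 0.316), beside S100a10.

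Of 36 further genes enriched in astrocytes 0 passed, and 11 had an unadjusted p under 0.05, 4 higher and 7 lower (30.6%, against 12.7% of all clusters). Their median was -0.01 and they ranged from -0.35 to 0.26. Cyp4f15, a cytochrome of fatty acid hydroxylation, was at 814 ± 54.8 in MSN and 679 ± 74.2 in ICR mice (SD, n = 6 each), a log2 fold change of 0.26 (95% interval 0.12 to 0.40, adjusted p = 0.0925). Kcnj10, Mlc1 and Slc1a2, given above, belong to this list too. Ntsr2, a neurotensin receptor named after its value was seen, was at 1607 ± 41.9 in MSN and 2082 ± 352 in ICR mice (SD, n = 6 each), a log2 fold change of -0.35 (95% interval -0.55 to -0.16, adjusted p = 0.10). Like Gfap, Ntsr2 had the wider spread in ICR mice. Cbs, also named after its value was seen, lay on the other side of 0, at 0.13 (95% interval 0.06 to 0.21, adjusted p = 0.103). The strains did not overlap in Cbs.

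**Figure D5:**
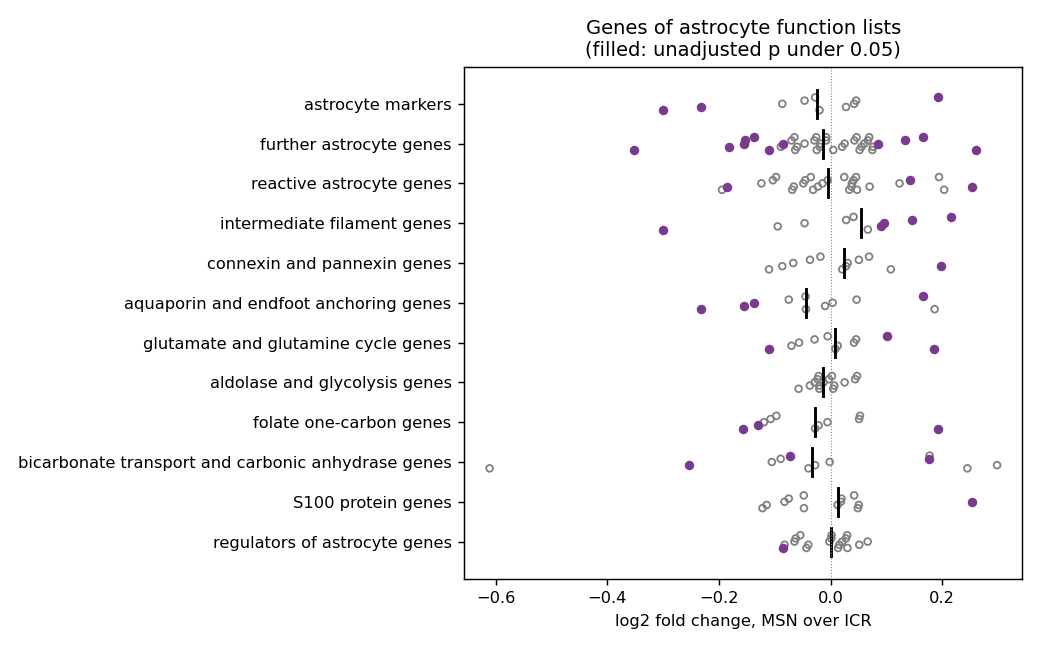
Log2 fold change of MSN over ICR mice (horizontal axis) for each gene of the marker and function lists, 1 row per list. Filled points have an unadjusted p under 0.05, and black bars are list medians. The medians lie near 0 in every list, from -0.04 to 0.05, and the further astrocyte genes with filled points, 4 higher and 7 lower, lie on both sides of 0.

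Markers of other cells were read in the same arrays, because whole hippocampus holds them all. Over all clusters 0.777% passed and 54.5% were below 0. Of 12 neuronal genes 0 passed, and Stmn2, a microtubule regulator of neurons, was at -0.17 with strains that did not overlap (adjusted p = 0.0570). Nefl was at 0.09 and Rbfox3, Syt1, Slc17a7, Camk2a and Snap25 at -0.07 to 0.03. The summed intensity of the neuronal list was 77174 to 80343 in MSN and 76962 to 82704 in ICR mice. The mature oligodendrocyte list had 0 of 9 genes passing and 8 above 0 (Mbp at 0.09, Mobp at 0.13, Ermn and Mog both at 0.07, adjusted p from 0.286 to 0.704), with sums of 22339 to 26233 in MSN and 21943 to 24649 in ICR mice. Of 9 genes of oligodendrocyte precursors 1 passed, 8 were above 0, and the median was 0.08. At an unadjusted p under 0.05, 1 was higher and 1 lower, beside 5.18% and 7.50% of all clusters. The gene that passed was Pdgfra, a growth factor receptor of these precursors. It rose by 0.26 (95% interval 0.16 to 0.35, adjusted p = 0.0184), from 958 ± 60.0 in ICR to 1147 ± 45 in MSN mice (SD, n = 6 each). Cspg4, the NG2 proteoglycan, was at 0.08 (adjusted p = 0.468). Lhfpl3, named after its value was seen, was the lower gene, at -0.09 (95% interval -0.17 to -0.01, adjusted p = 0.333).

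In microglia (10 genes), endothelium (8), pericytes and smooth muscle (8), and stem cells and neuroblasts (10), 0 genes passed in each list. Their medians were 0.04, 0.03, -0.01 and 0.03. Among microglial genes C1qb was at 0.17, Trem2 at -0.18 and P2ry12 at -0.09, and the defining genes Cx3cr1, Tmem119 and Aif1 at 0.01, 0.03 and 0.04. Among endothelial genes Slco1a4 was at -0.17, Flt1 at 0.13, Cldn5 at 0.16 and Pecam1 at 0.04. Of the pericyte and smooth muscle genes Tagln was at -0.12, Acta2 at -0.11, Rgs5 at 0.06 and Pdgfrb at 0.02. Of the stem cell and neuroblast genes Igfbpl1 was at 0.15, Hopx at 0.13, Sox11 at 0.12, Nes at 0.07, Sox2 at 0.02 and Dcx at -0.04. The adjusted p of the genes named from these lists ran from 0.274 for Igfbpl1 to 0.933 for Cx3cr1. The choroid plexus and ependyma list had 0 of 11 genes passing, 10 above 0 (54.5% of all clusters were below 0) and a median of 0.29. Ttr, the transthyretin of choroid plexus, was at 10414 ± 2392 in MSN and 8436 ± 2897 in ICR mice (SD, n = 6 each). The largest log2 fold change of this list was that of Kcnj13, a potassium channel of choroid plexus, at 0.82 (95% interval -0.07 to 1.70, adjusted p = 0.434), and Folr1 was at 0.20 (adjusted p = 0.833) and Ccdc153 at 0.07 (adjusted p = 0.538). The sum of the list varied from 10042 to 23340 in MSN and from 8406 to 23452 in ICR mice. The part of this spread in the marker levels was not tested.

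Of 10 genes that mark hippocampal fields 1 passed, beside 0.777% of all clusters. At an unadjusted p under 0.05, 4 were higher and 0 lower, beside 5.18% and 7.50% of all clusters. Of the 10 genes 9 were above 0, where 54.5% of all clusters were below 0. Bok, a BCL2 family gene, rose by 0.36 (95% interval 0.21 to 0.51, adjusted p = 0.0305), while Prox1 of the dentate granule cells was at 0.18 (adjusted p = 0.400) and Wfs1, a marker of CA1, at 0.17 (adjusted p = 0.352). Bok lost its call when clusters without a gene were tested too (adjusted p = 0.0576), and also on leaving out any 1 of 7 arrays, MSN 1, MSN 3, MSN 4, ICR 1, ICR 3, ICR 5 or ICR 6 (adjusted p from 0.0510 to 0.0753). The list of thalamus and striatum had 0 of 6 genes passing, with Tcf7l2 at -0.10, Drd2 at 0.14, Rorb at -0.07 and Prkcd at 0.08 (adjusted p from 0.427 to 0.861). No defining gene was listed at 0 in any mouse, the lowest intensity being 98.8 in the list of stem cells and neuroblasts, but no background level was set here, so these intensities do not show which cell types were detected. Where these lists moved with strain, their part in the astrocyte values was not tested.

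The 3 genes whose levels followed each marker most closely over the 12 mice, strain means subtracted, are given here. Which cells express these genes was not checked. For Gfap they were Cnn3 (r = 0.930), Otud4 and Lats1, for Aqp4 Emg1 (0.861), Emc3 and Plekhm1, and for Aldh1l1 Wipi2 (0.947), Cyhr1 and Akt2. For S100b they were Neto2 (0.921), Oser1 and Mmp24, for Gja1 Bcs1l (0.874), Gm6020 and Cck, and for Gjb6 AI854703 (0.927), Acot11 and Ina. For Glul they were Mir717 (0.882), Wbp4 and Macir, for Aldoc Cdh12 (0.918), Lrrc38 and Adcy2, for Vim Senp6 (0.904), Ezr and Ccnd3, and for Slc4a4 Selenom (0.906), Armh4 and Inpp1. A highest correlation of this size is usual here: over all 19938 genes the median of the highest r was 0.932, with 5 to 95% of genes at 0.881 to 0.968, and the markers' were 0.861 to 0.947. In none of the 10 genes was another marker among the nearest 3.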

How the data were processed

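Total RNA of the macrodissected hippocampus of 12 mice was hybridized to 12 arrays, 6 MSN and 6 ICR, labelled with replicate numbers within each strain. The deposited values are linear intensities, 1 per transcript cluster and array, which the authors computed by PLIER after correcting background within GC bins (Affymetrix Power Tools 1.12.0). Array medians over clusters with a gene ran from 373 to 389, arrays of a strain correlated at 0.992 to 0.997. Precision is limited by the number of arrays. Genes were named from the platform annotation: 21789 clusters had 1 gene, 1621 several and 12146 none, and 21698 were matched to RefSeq by gene ID. Chromosomes come from RefSeq.

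A model with strain as its only term was fitted to log2(intensity + 16) with limma 3.58.1 in R 4.3.3 (lmFit, eBayes) over 23410 clusters with a gene, with Benjamini-Hochberg adjustment over all of them, and a cluster passed at an adjusted p under 0.05. Single genes were also tested by an exact two-sided permutation over the 924 splits of the mice, and pairs of markers by 100000 permutations within strain. In the lists, each gene is represented by its brightest cluster, and the genes named are those that passed, otherwise the 3 with the smallest p, and the defining genes of other cell types. Ntsr2, Cbs and Lhfpl3 were named in addition, after their values were seen. The members and lists were chosen with earlier results of these data known. Alternatives were the scale, pseudocounts of 1 and 64, 2 normalizations, the variance model, a filter on dim clusters, array weights, the clusters tested, a replicate block, each array left out in turn, and correlation without subtracting strain means. The same settings for Aqp4 minus Aldh1l1 were chosen after seeing the data.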

Additional observations from a re-analysis of the deposited data

How the results depend on the processing

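The count of marker clusters that passed was 0 under every alternative run, each array left out included, and the count of marker pairs that passed was 0 as well. With all 12 arrays, 3 marker clusters had an unadjusted p under 0.05 under each alternative. On the log2 scale the fold changes were then -0.30 to -0.27 for Gfap, -0.23 to -0.21 for Aqp4 and 0.18 to 0.22 for Aldh1l1. Without single arrays they were -0.35 to -0.23, -0.28 to -0.19 and 0.16 to 0.23. Aqp4 minus Aldh1l1 stayed between -0.43 and -0.41, or -0.45 and -0.38 without single arrays. Directions turned near 0: Glul (second cluster) was at 0.0063 with quantile normalization, 0.0080 with arrays scaled to one median, 0.0031 without MSN 2 and 0.0046 without ICR 6 (-0.043 to 0.0046 without single arrays), Aldoc at 0.00034 and 0.0066 with these normalizations, Gjb6 at -0.0013 without ICR 1 (up to 0.066 without single arrays) and Slc4a4 at 0.00061 without ICR 3 (down to -0.048 without single arrays). Without subtracting strain means the correlation of Aldh1l1 and Aqp4 was -0.16.

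Of the list genes 2 passed (Pdgfra and Bok), but 4 with untransformed intensities and with a pseudocount of 64, 7 with the trend and robust options and with array weights, 8 with clusters above the median mean, 1 with all clusters, 0 with the replicate block, and 1 to 3 without single arrays. Of all clusters 182 passed (71 higher, 111 lower), against 279 with a pseudocount of 64, 315 with array weights, 42 with the replicate block and 91 to 210 without single arrays. The split was 131 higher against 109 lower under quantile normalization and 115 against 89 when arrays were scaled to one median. The causes were not tested. The labels do not say what the replicate number stands for. Over all clusters with a gene, the deviations of mice of equal number correlated at -0.126 to 0.125, and 1 of 6 pairs was over 0.1. Whether equal numbers mark a shared batch that touches some clusters was not tested. With the replicate block Pdgfra and Bok had limma adjusted p of 0.0652 and 0.0940.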
